A study of Rattus norvegicus with 6 samples.

Results

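The aminoacyl-tRNA synthetases are the enzymes that load amino acids onto transfer RNAs, and 37 of the 12121 genes listed for C6 rat glioma cells were taken as their genes and those of their scaffold proteins. The members were chosen by gene symbol alone, a rule that missed Eprs, Pars2 and Tarsl2: a letter for the amino acid followed by "ars" with or without a closing 1 or 2, the genes Farsa, Farsb and Fars2, and the scaffold genes Aimp1 and Aimp2. Of these, 19 encoded cytosolic enzymes, 16 encoded mitochondrial enzymes, whose symbols end in 2, and 2 encoded scaffold proteins. C6 is an established glioma line from a rat brain tumour, and its transcripts were sequenced in 3 replicates of cells that overexpress Aqp1 (C6-AQP1) and in 3 replicates of C6 control cells, whose genotype is given only as control. According to the methods, AQP1, a water channel, was introduced in a pCDH vector that drives the insert from a CMV promoter and also encodes copGFP and puromycin resistance. The sources used here do not state whether the line was a clone or a pool, whether the sequenced controls carried an empty vector, or whether replicates were cultured separately. The p-values therefore rest on a spread between replicates that may be technical only.

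Each synthetase recognizes a single amino acid, or a pair in the fused enzyme Eprs, and joins it to the matching transfer RNAs before they enter the ribosome. Cytosol and mitochondria use largely separate sets of these enzymes, although both sets are encoded in the nucleus, and Gars and Kars supply both compartments. Several cytosolic enzymes are held together in the multisynthetase complex by Aimp1, Aimp2 and Eef1e1. Many cytosolic synthetase genes are known targets of ATF4, a transcription factor of the amino acid response.

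The expected counts of the listed genes summed to between 19054244 and 52725870 per library, and replicate 1 was the shallowest library in both groups. Levels are given as normalized CPM, read counts scaled to a common library size with TMM factors, and levels of different genes are not compared because transcript lengths were not used. Aqp1 had 1058 ± 5.81 CPM in C6-AQP1 cells and 349 ± 2.48 CPM in C6 control cells (SD, n = 3). Of 10 glial and glioma markers, 8 were listed, without Aldh1l1 and Sox9. The 8 listed markers summed to between 7073 and 7339 CPM in the C6-AQP1 libraries and between 5229 and 5362 CPM in the controls. Their log2 fold changes ran from 0.07 for Cspg4 to 3.57 for Gfap. Gfap had 167 CPM in C6-AQP1 and 14.0 CPM in the controls, while Vim, the largest part of the sum, had 3249 and 2001 CPM. None of the 5 endothelial markers and only P2ry12 of 6 microglia and blood cell markers were listed. P2ry12 had 6.87 CPM in C6-AQP1 and 2.97 CPM in the controls. The 4 listed fibroblast markers of 6 summed to between 1297 and 1320 CPM in C6-AQP1 and between 726 and 734 CPM in the controls. Dcn and Lum were not listed. Most of the fibroblast sum was Pdgfra, with 1134 CPM in C6-AQP1 and 695 CPM in the controls. Col1a1, Col3a1 and Thy1 also rose, with log2 fold changes of 2.60, 2.26 and 3.91. The 5 listed neuron markers of 6 summed to between 279 and 286 CPM in C6-AQP1 and between 111 and 115 CPM in the controls, without Rbfox3. Most of the neuron sum was Map2, while Snap25 also rose, Syn1 fell, and Tubb3 and Nefl did not pass the test. The part of these marker levels in the results that follow was not tested.

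The cytosolic enzymes chosen by the symbol rule were lower in C6-AQP1 cells almost without exception, whereas the mitochondrial enzymes went both ways. Of the 19 cytosolic enzymes, 18 fell, none rose, and Mars did not pass the test. The 16 mitochondrial enzymes held 8 rises and 5 falls, and 3 genes, Aars2 and Cars2 among them, did not pass. Both scaffold genes fell. These counts rest on an adjusted p under 0.05 from edgeR's quasi-likelihood test, a threshold that 81.5% of all listed genes passed, 40.7% as lower and 40.8% as higher. The median log2 fold change, C6-AQP1 over C6 control, was -0.33 over the cytosolic and 0.09 over the mitochondrial enzymes, against 0.0010 over all listed genes. With library totals as the scaling the cytosolic and mitochondrial medians were -0.28 and 0.14. None of the 37 members changed by more than 2-fold with an adjusted p under 0.05, a bar that 9.74% of all genes reached as higher and 4.35% as lower.

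**Figure D1:**
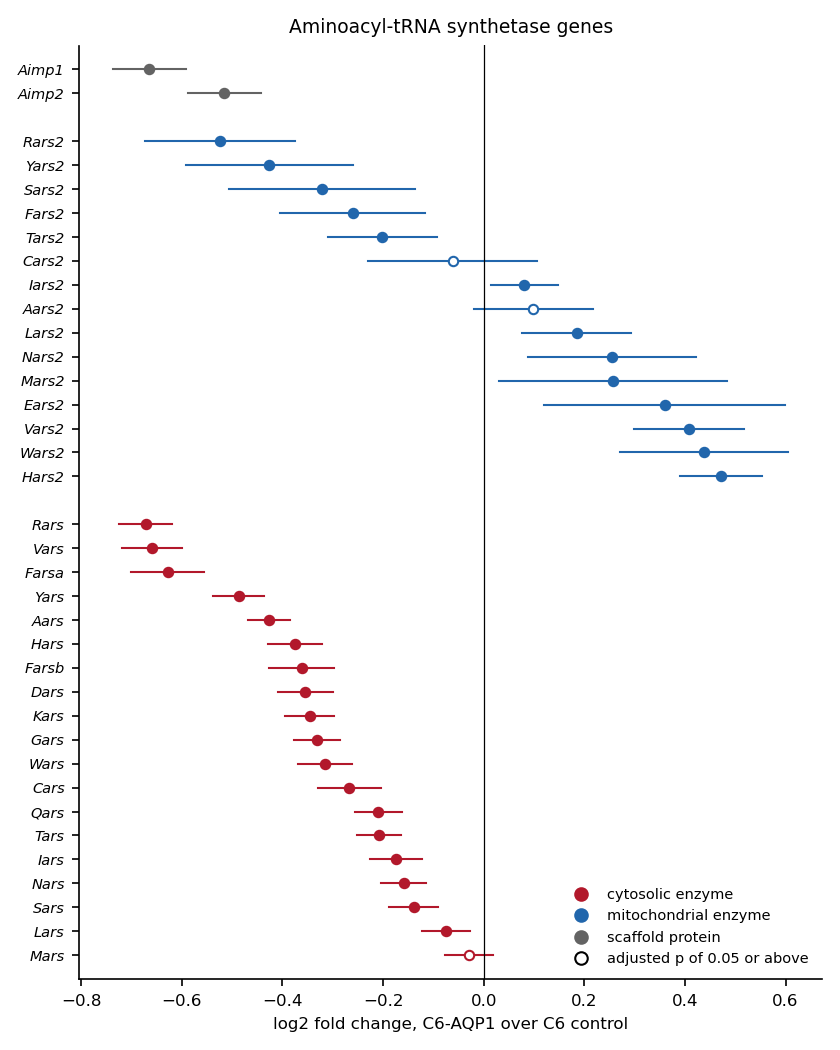
Log2 fold change of 36 of the 37 members between C6-AQP1 and C6 control cells, with lines for the 95% interval and open symbols for genes that did not pass an adjusted p of 0.05. All 19 cytosolic enzymes (red) lie left of 0, from -0.67 for Rars to -0.03 for Mars (which is above 0 with library totals as the scaling), while the 15 mitochondrial enzymes shown (blue) spread from -0.52 to 0.47.

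The largest falls among the cytosolic enzymes were those of the arginine, valine, phenylalanine and tyrosine enzymes. Rars, the arginyl-tRNA synthetase, had 88.9, 84.6 and 85.3 CPM in the C6-AQP1 replicates 1, 2 and 3 and 139, 137 and 136 CPM in the corresponding controls. Vars, the valyl-tRNA synthetase, had 94.95, 102 and 99.9 CPM in C6-AQP1 and 152, 156 and 162 CPM in the controls. In both genes the groups lay far apart compared with the spread inside a group, and the log2 fold changes were -0.67 for Rars (SE 0.03, adjusted p = 1.2e-15) and -0.66 for Vars (SE 0.03, adjusted p = 1.8e-14). Farsa, the catalytic chain of the phenylalanine enzyme, had 35.6, 36.5 and 34.9 CPM against 56.5, 54.4 and 54.9 CPM, a log2 fold change of -0.63 (SE 0.04, adjusted p = 9.4e-13). Its partner chain Farsb had a log2 fold change of -0.36. Yars, the tyrosyl-tRNA synthetase, had 92.3, 92.4 and 92.6 CPM against 129, 129 and 131 CPM, with a log2 fold change of -0.49 (SE 0.03, adjusted p = 1.4e-13). The libraries of the 2 groups did not overlap in any of these genes, nor did they in 82.5% of all listed genes.

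A middle group of cytosolic enzymes changed by between -25.6% for Aars and -16.9% for Cars. The log2 fold changes were -0.43 for Aars (alanine), -0.37 for Hars (histidine), -0.35 for Dars (aspartate), -0.35 for Kars (lysine), -0.33 for Gars (glycine), -0.32 for Wars (tryptophan) and -0.27 for Cars (cysteine). Aars had 184, 184 and 182 CPM in C6-AQP1 and 249, 244 and 246 CPM in the controls. Smaller falls were those of Qars (glutamine) and Tars (threonine), both at -0.21, Iars (isoleucine) at -0.17, Nars (asparagine) at -0.16, Sars (serine) at -0.14 and Lars (leucine) at -0.07. Lars had 190, 188 and 185 CPM in C6-AQP1 and 203, 198 and 192 CPM in the controls, so the groups came close without overlapping. Its call (adjusted p = 0.0086) was lost without C6 control replicate 1 (adjusted p = 0.0783) and without C6 control replicate 2 (adjusted p = 0.0562), and it was also lost with library totals as the scaling (adjusted p = 0.452). Mars, the methionine enzyme, had 147, 144 and 146 CPM in C6-AQP1 and 148, 152 and 147 CPM in the controls, and its groups overlapped. The log2 fold change of Mars was -0.03, with a 95% interval from -0.08 to 0.02, and it was 0.03 with library totals as the scaling.

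Since most genes passed a test of no change, each gene was also tested for a fold change above 1.2. On this stricter test, 11 of the 19 cytosolic enzymes were lower and none was higher, compared with 56% of all listed genes, 27.1% as lower and 28.9% as higher. The 11 were Rars, Vars, Farsa, Yars, Aars, Hars, Farsb, Dars, Kars, Gars and Wars, and the call of Wars (adjusted p = 0.0169) was lost without C6 control replicate 1 (adjusted p = 0.0845) and without C6-AQP1 replicate 3 (adjusted p = 0.0872). Of the mitochondrial enzymes, Hars2, Wars2 and Vars2 were higher and Rars2 and Yars2 lower by this test. With library totals as the scaling, 6 cytosolic enzymes were lower, because Dars, Farsb, Gars, Kars and Wars lost the call (adjusted p of 0.0551, 0.0503, 0.177, 0.0739 and 0.405), as did Yars2 (0.0588). DESeq2 did not call Farsb, Wars, Wars2, Vars2 or Yars2 above 1.2-fold (adjusted p of 0.0558, 0.259, 0.234, 0.109 and 0.292). By limma-voom, Wars, Wars2 and Yars2 lost the call (adjusted p of 0.0664, 0.0785 and 0.0672). Wars2 also lost it without replicate 1 of both groups (adjusted p = 0.0900).

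**Figure D2:**
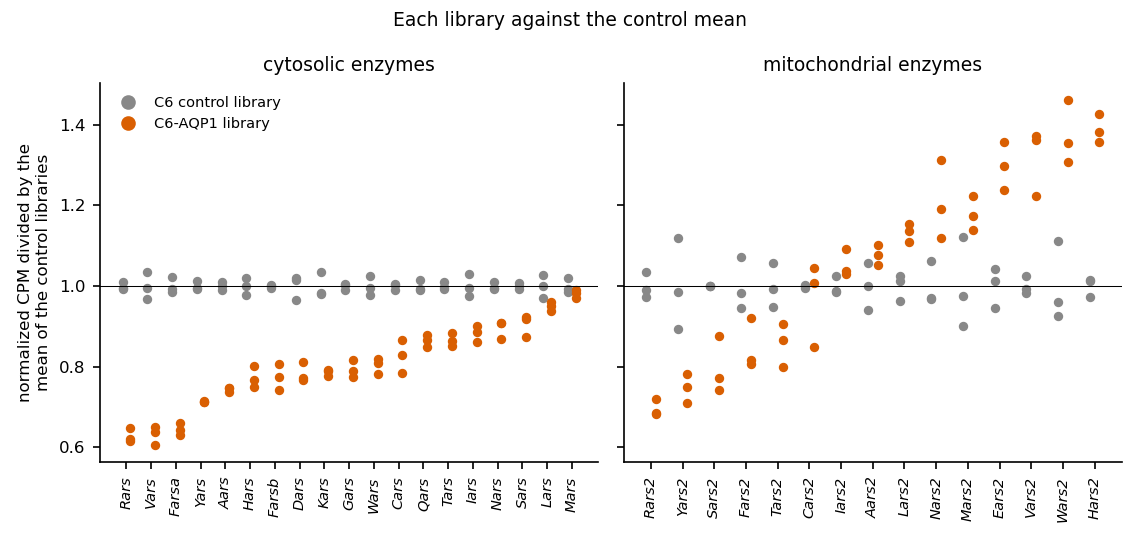
Normalized CPM of 19 cytosolic (left) and 15 mitochondrial (right) enzymes in each library, divided by the mean of the 3 control libraries of that gene; grey points are C6 control libraries and orange points C6-AQP1 libraries. The C6-AQP1 points lie below all control points for 18 of 19 cytosolic enzymes, and for the mitochondrial enzymes below them in 5 and above them in 8 of the 15 shown.

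Read by library, the C6-AQP1 points lay below every control point in 18 cytosolic and 5 mitochondrial enzymes and above every control point in 8 mitochondrial and no cytosolic enzymes. Over all listed genes, 41.3% lay apart in each of the 2 directions. Summed over the 19 cytosolic enzymes, the level was 2558, 2563 and 2545 CPM in the C6-AQP1 replicates and 3174, 3126 and 3118 CPM in the controls. Eprs, which the rule missed, is not in this sum and was higher, with 521 CPM in C6-AQP1 and 483 CPM in the controls. The 16 mitochondrial enzymes together had 278, 284 and 282 CPM in C6-AQP1 and 265, 264 and 266 CPM in the controls. The ratio of the cytosolic to the mitochondrial sum was 9.09 ± 0.1104 in C6-AQP1 and 11.8 ± 0.122 in C6 control cells (SD, n = 3). No p is given for these sums, since the genes in them were chosen with earlier results of these libraries known.

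The mitochondrial enzymes that rose most were those for histidine, tryptophan, valine and glutamate. Hars2, the mitochondrial histidyl-tRNA synthetase, had 37.9, 38.6 and 39.8 CPM in C6-AQP1 and 27.1, 28.4 and 28.3 CPM in the controls, a log2 fold change of 0.47 (SE 0.04, adjusted p = 1.0e-09). Wars2, for tryptophan, had 11.5, 10.3 and 10.6 CPM against 7.27, 8.74 and 7.55 CPM, a log2 fold change of 0.44 (SE 0.09, adjusted p = 8.0e-05). Both genes had every C6-AQP1 library above every control library. Vars2, for valine, had 23.4, 26.3 and 26.1 CPM against 18.8, 18.99 and 19.6 CPM, a log2 fold change of 0.41 (SE 0.06, adjusted p = 7.9e-07). Ears2, for glutamate, had 4.51, 4.31 and 4.11 CPM against 3.14, 3.36 and 3.46 CPM, a log2 fold change of 0.36 (SE 0.12, adjusted p = 0.0104). In Vars2 and Ears2 too the groups did not overlap, as in 82.5% of all listed genes.

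Lower in C6-AQP1 cells were the mitochondrial enzymes for arginine, tyrosine, serine, phenylalanine and threonine. Rars2, for arginine, had 7.99, 7.58 and 7.61 CPM in C6-AQP1 and 11.5, 11.001 and 10.8 CPM in the controls, a log2 fold change of -0.52 (SE 0.08, adjusted p = 1.9e-06). Yars2, for tyrosine, had 8.09, 8.53 and 8.91 CPM against 10.2, 11.2 and 12.8 CPM, a log2 fold change of -0.43 (SE 0.08, adjusted p = 9.4e-05). Its call above 1.2-fold (adjusted p = 0.0172) was lost without C6 control replicate 3 (adjusted p = 0.170). Sars2, for serine, had 6.09, 5.86 and 6.93 CPM against 7.90, 7.89 and 7.90 CPM, a log2 fold change of -0.32 (SE 0.09, adjusted p = 0.00374). Fars2, for phenylalanine, had 12.4, 11.05 and 10.9 CPM against 12.8, 14.5 and 13.3 CPM, a log2 fold change of -0.26 (SE 0.07, adjusted p = 0.00284). For Fars2 the gap between the groups was small compared with the range inside them. Tars2, for threonine, had a log2 fold change of -0.20.

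The other mitochondrial enzymes that rose did so by smaller amounts. Lars2 (leucine) and Nars2 (asparagine) rose, with log2 fold changes of 0.19 and 0.25, and so did Mars2 (methionine) and Iars2 (isoleucine), with 0.26 and 0.08. The last pair stood close to the threshold. The adjusted p of Mars2 was 0.0463, and it lay between 0.0527 and 0.174 without C6-AQP1 replicate 1, 2 or 3 or without C6 control replicate 2 or 3, and was 0.121 by DESeq2. That of Iars2 was 0.0337, and it became 0.218 without C6-AQP1 replicate 2, 0.0813 without C6 control replicate 2 0.0667 without C6 control replicate 3 and 0.106 by DESeq2. The call of Nars2 (adjusted p = 0.00949) was lost without replicate 1 of both groups (adjusted p = 0.0687). The log2 fold changes of Aars2 (alanine) and Cars2 (cysteine) were 0.10 (95% interval -0.02 to 0.22) and -0.06 (-0.23 to 0.11), and neither passed the test. Aars2 did pass without C6 control replicate 3 (adjusted p = 0.0478) and with library totals as the scaling (adjusted p = 0.0248). The rounded counts behind a value ranged from 70 to 3106 for the mitochondrial and from 695 to 12861 for the cytosolic enzymes, so the standard errors were larger for the former, between 0.03 and 0.12 compared with 0.02 to 0.04. The log2 fold change of 0.10 in Aars2 did not pass the test, while the smaller change of -0.07 in Lars did.

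For 15 amino acids the listed genes held both a cytosolic and a mitochondrial enzyme, which gave 16 pairs because the cytosolic phenylalanine enzyme has separate chains. In 15 of the 16 pairs the log2 fold change of the cytosolic gene was the lower one, although in the pairs of Tars, Yars, Farsb and Rars the 95% interval of the difference held 0. The remaining pair, Sars and Sars2, differed by 0.18 (SE 0.10), and that interval held 0 as well. The valine pair differed most, with -0.66 for Vars and 0.41 for Vars2, a difference of -1.07 (SE 0.06). The ratio of Vars to Vars2 was 4.06, 3.88 and 3.83 in the C6-AQP1 replicates and 8.06, 8.21 and 8.25 in the controls. The tryptophan pair differed by -0.75 (SE 0.09), the alanine pair by -0.53 (SE 0.06) and the asparagine pair by -0.41 (SE 0.09). In 6 pairs both genes passed the test in opposite directions, namely those for histidine, isoleucine, leucine, asparagine, valine and tryptophan. Of these, the isoleucine, leucine and asparagine pairs rest on the calls of Iars2, Lars and Nars2 that some alternatives removed. Among all single listed genes, 40.8% rose and 40.7% fell at this threshold. The count of 6 pairs was not tested against these shares.

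Counted over all 16 pairs, the cytosolic to mitochondrial ratio was lower in every C6-AQP1 library than in every control in 11, higher in the serine pair, and overlapping in the pairs of Cars, Farsb, Tars and Yars. For comparison, 82.5% of single listed genes did not overlap between the groups. In the pairs of threonine, tyrosine, phenylalanine and arginine both genes fell, and the log2 fold changes differed by -0.0060 (SE 0.06) for Tars, -0.06 (SE 0.09) for Yars, -0.10 (SE 0.08) for Farsb and -0.15 (SE 0.08) for Rars. Farsa and Fars2 also both fell, as did Sars and Sars2. The pairs are given as descriptions, because an exact permutation test of 3 libraries against 3 cannot give a p below 0.10.

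**Figure D3:**
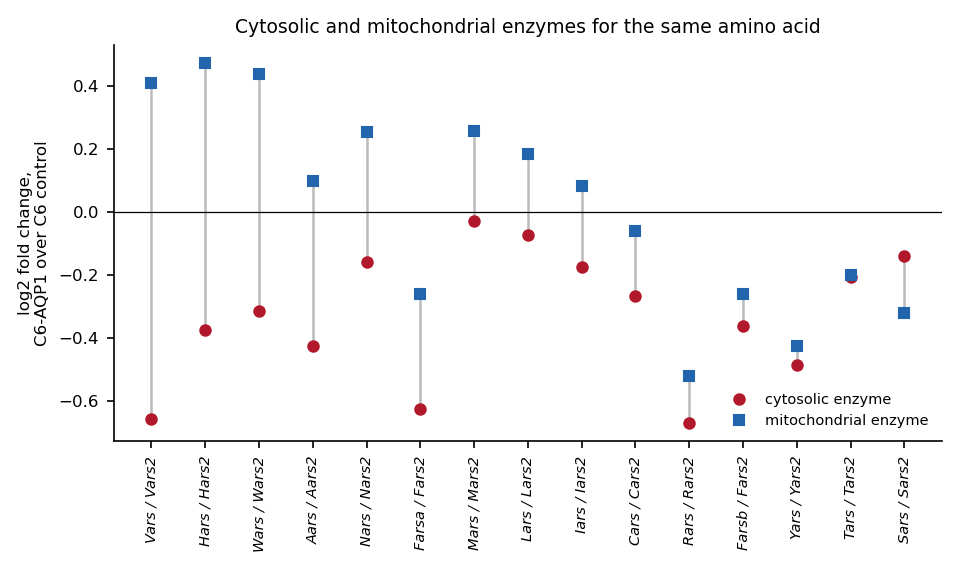
Log2 fold change, C6-AQP1 over C6 control, of the cytosolic (red circles) and mitochondrial (blue squares) enzyme for the same amino acid, ordered by their difference, with a grey line joining each of the 15 pairs shown. The valine pair on the left differs by -1.07 and the serine pair on the right by 0.18, the single pair in which the mitochondrial gene is lower; Fars2 appears with both Farsa and Farsb.

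The histidine pair is shown in sequence because its genes stand head to head and still moved in opposite directions. Hars had 136, 130.0 and 127 CPM in the C6-AQP1 replicates and 173, 169.7 and 166 CPM in the controls. The ratio of Hars to Hars2 was 3.58, 3.37 and 3.19 in C6-AQP1 and 6.37, 5.98 and 5.87 in the controls, without overlap, and the log2 fold changes differed by -0.85 (SE 0.05). The proteins are closely related, and RSEM divides reads that fit several genes, but the expected counts of both genes were whole numbers in all 6 libraries. In RefSeq (GRCr8, a later build than the rn6 used for the counts) the starts of Hars1, the present name of Hars, and Hars2 face away from each other with 143 bases between them, at chr18:28672713-28672855. The stretch is printed on the plus strand, with the start of Hars1 just before its first base and that of Hars2 just after its last base, and 55.2% of it is G or C.
Hars1 to Hars2: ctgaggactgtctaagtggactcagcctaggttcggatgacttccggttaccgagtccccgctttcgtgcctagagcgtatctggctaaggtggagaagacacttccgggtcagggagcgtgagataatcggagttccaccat
The stretch held neither of the motifs searched, TGATGNAA and CACGTG.

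These motifs were searched on both strands of RefSeq windows from 250 bases before to 50 bases after a gene's start. TGATGNAA is the core of the C/EBP-ATF response element, which ATF4 is known to bind, and CACGTG is the E-box bound by MYC and related factors. All 37 members were matched to a RefSeq gene by symbol, and 33 had a window, which Dars, Gars and Rars among the cytosolic enzymes did not. The core TGATGNAA lay in the windows of 7 of 16 cytosolic enzymes (43.8%), of none of 15 mitochondrial enzymes and of neither scaffold gene, compared with 3.98% of all 33469 windows. The motif CACGTG lay in the windows of 5 of 16 cytosolic enzymes, namely Vars, Aars, Farsb, Tars and Iars, in that of Ears2 among the mitochondrial enzymes, and in 6.42% of all windows. A match describes the letters in the window and not a bound site.

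Of the 7 cytosolic genes with the core, 6 are shown with up to 10 bases on each side, on the strand that reads TGATGNAA, which is in capitals.
Cars1, chr1:208225335-208225362, plus strand: ttccagaatcTGATGCAAccgcggcgcc
Iars1, chr17:15193659-15193686, plus strand: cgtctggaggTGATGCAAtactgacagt
Mars1, chr7:65023753-65023780, plus strand: gagcccacgcTGATGCAAccggaacggg
Nars1, chr18:60275779-60275806, minus strand: ctaggtgatcTGATGCAAcgcttcagtc
Tars1, chr2:62114812-62114839, plus strand: gctaaccagcTGATGCAAcgggacgcca
Yars1, chr5:146820191-146820212, plus strand: cgagctcagcTGATGCAAcctg
The core read TGATGCAA in all 6 genes shown. The coordinates and present names are those of GRCr8. The log2 fold changes of the 7 genes ran from -0.49 for Yars to -0.03 for Mars with a median of -0.21, and those of the 9 cytosolic genes whose windows lacked the core ran from -0.66 to -0.07 with a median of -0.35.

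The enzymes were also read by fold class and by complex, features that the symbol rule does not use. Synthetases form 2 classes with unrelated catalytic folds. Among the cytosolic enzymes, 8 of 9 of class I and 10 of 10 of class II fell, with medians of -0.27 and -0.35. In mitochondria, class I had 6 rises and 2 falls among 9 genes (median 0.19) and class II had 2 rises and 3 falls among 7. Of the 7 cytosolic members that belong to the multisynthetase complex, 6 fell (median -0.21), and outside the complex all 12 fell (median -0.35). At the same threshold, 40.8% of all listed genes rose and 40.7% fell, and these groups of enzymes were not tested against those shares.

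The non-enzymatic parts of the complex fell more than most of its enzymes. Aimp1, a scaffold protein that is also secreted as a cytokine, had 41.8, 41.6 and 38.8 CPM in C6-AQP1 and 63.6, 64.9 and 64.3 CPM in the controls, a log2 fold change of -0.66 (SE 0.04, adjusted p = 3.0e-13). Aimp2, which holds the complex together, had 34.0, 35.2 and 34.7 CPM against 49.1, 50.3 and 49.3 CPM, a log2 fold change of -0.52 (SE 0.04, adjusted p = 3.0e-11). Eef1e1, the third scaffold protein, whose symbol lies outside the rule, had 19.001, 17.8 and 18.1 CPM against 37.8, 38.0 and 33.4 CPM, a log2 fold change of -0.99 (SE 0.06, adjusted p = 5.0e-13). In all 3 scaffold genes every C6-AQP1 library lay below every control library, as in 41.3% of all listed genes.

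The symbol rule also missed 3 listed synthetases. Eprs, the fused glutamate and proline enzyme of the complex, had 527, 514 and 521 CPM in C6-AQP1 and 487, 477 and 485 CPM in the controls. It was the cytosolic synthetase outside the rule that rose, with a log2 fold change of 0.11 (SE 0.02, adjusted p = 2.4e-05). Pars2, the mitochondrial proline enzyme, had 14.5, 14.5 and 15.6 CPM against 18.4, 16.1 and 17.7 CPM, a log2 fold change of -0.22 (SE 0.07, adjusted p = 0.00465). Tarsl2, a further threonine enzyme, had 17.1, 17.3 and 17.2 CPM against 17.9, 17.7 and 16.7 CPM, a log2 fold change of -0.01 (SE 0.06, adjusted p = 0.838), and its groups overlapped.

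Among other genes of transfer RNA charging and quality control, 4 of 14 listed rose and 10 fell, with a median log2 fold change of -0.24. Over all listed genes, 40.8% rose and 40.7% fell, the shares against which this and the following lists are read. Ptrhd1 and Ptrh2, of the peptidyl-tRNA hydrolase group, had 3.03 ± 0.444 and 14.5 ± 1.31 CPM in C6-AQP1 and 9.91 ± 0.603 and 29.5 ± 2.39 CPM in the controls (SD, n = 3), with log2 fold changes of -1.72 and -1.04. Sepsecs, which makes selenocysteinyl-tRNA, rose by 0.64 on the log2 scale, from 24.9 ± 0.381 to 38.7 ± 0.870 CPM (SD, n = 3). Among 9 genes of cytosolic elongation and termination and its control, 7 fell and 1 rose (median -0.45). Eef1b2 and Eef1d, which recharge the factor that delivers loaded transfer RNAs, had log2 fold changes of -1.16 and -0.86, Eif5a, an elongation factor, -1.10, and the release factor Etf1 -0.60. Mitochondrial translation factors had 2 rises and 5 falls among 10 (median -0.10). Of these, Gfm2 rose with 0.42, and Mtif3, Gfm1 and Tsfm fell with -0.53, -0.49 and -0.28.

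Genes that make and trim transfer RNAs went both ways. Of 22 genes of RNA polymerase III and its factors, 7 rose, 8 fell and 7 did not pass (median -0.02), where 81.5% of all listed genes passed, and the 3 largest changes were falls of the polymerase subunits Polr3k, Polr3d and Polr3b, with log2 fold changes of -0.90, -0.63 and -0.56. Of 44 listed processing and modification genes, 8 rose and 25 fell (median -0.24), beside 40.8% and 40.7% of all listed genes. The RNase P subunits Rpp21 and Pop4 had log2 fold changes of -1.42 and -1.003, and the modifying enzymes Trit1 and Adat1 0.80 and 0.79.

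**Figure D4:**
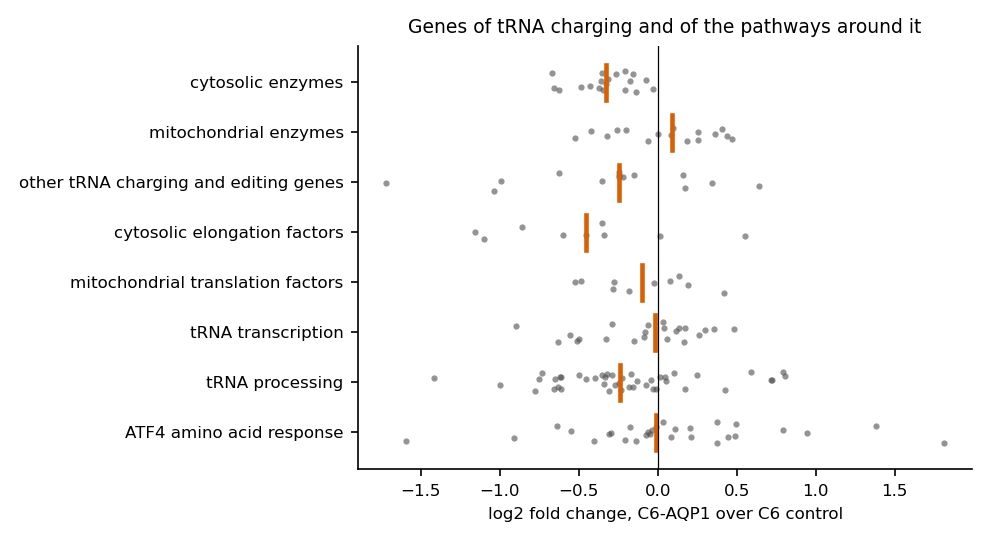
Log2 fold change, C6-AQP1 over C6 control, of each gene (points, spread vertically only to separate them) in the cytosolic and mitochondrial enzymes and in 6 lists of related genes; orange bars give the median of each list. The cytosolic enzymes have a median of -0.33 with all points left of 0 (with library totals as the scaling, all but Mars), and the ATF4 amino acid response has a median of -0.01 with points from -1.59 to 1.81.

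The listed genes of the ATF4 amino acid response went both ways. Atf4 itself had 410.3, 402 and 397 CPM in C6-AQP1 and 299, 293 and 296 CPM in the controls, a log2 fold change of 0.45 (SE 0.02, adjusted p = 9.2e-15). These are transcript levels, and a part of ATF4 in the synthetase changes was not tested. Ddit3, the stress factor CHOP, had 29.7, 30.7 and 31.3 CPM against 17.8, 15.003 and 15.6 CPM, a log2 fold change of 0.95 (SE 0.06, adjusted p = 2.1e-12). Asns, the asparagine synthetase of the amino acid response, had 79.2, 76.0 and 77.7 CPM against 79.5, 80.4 and 82.1 CPM, a log2 fold change of -0.06 (SE 0.03, adjusted p = 0.0681). Of 29 listed genes of this response, which include Atf4 and are not limited to its targets, 13 rose and 9 fell (median -0.01). Among all listed genes the shares were 40.8% and 40.7%. The largest changes were the rises of Ddit4 (1.81) and Atf3 (1.38) and the fall of Trib3 (-1.59), all on the log2 scale.

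Neighbouring genes may limit some of these values. In RefSeq (GRCr8), 16 members overlap another annotated gene, and 5 members overlap another listed gene. No source used here says whether reads were counted by strand. Mars overlaps Ddit3 by 62 bases, Yars overlaps S100pbp by 61, Aimp2 overlaps Eif2ak1 by 2, Aars overlaps Ddx19b by 3441 and Rars2 overlaps Orc3 and Slc35a1 by 1062 and 7820. The log2 fold changes of Slc35a1 and Orc3 were -0.52 and 0.18, beside -0.52 for Rars2. That of Ddit3 was 0.95, beside -0.03 for Mars. The changes of Ddx19b, S100pbp and Eif2ak1 are not given here. Among protein-coding genes not found by symbol in the list, LOC103689966 and Ccer2 overlap Sars2 by 15430 and 652 bases. Boll overlaps Mars2 by 2998 bases. No member symbol stood for more than 1 listed gene. Expected counts that were not whole, a sign of reads divided between genes, occurred only in Mars2 and Ears2. Vars2 is also an older name of the cytosolic Vars1 in RefSeq, and its assignment to mitochondria here rests on the symbol.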

How the data were processed

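RNA-seq was analysed in 3 C6-AQP1 and 3 C6 control libraries, grouped by their labels. The study's methods and the submitters' processing notes name FastQC (0.11.2), Trimmomatic (0.36), STAR (2.5.1b) on rn6 and RSEM (1.2.29), but no annotation release. The deposited values are expected counts, not normalized by the authors, for 12121 genes kept by a TPM filter. Here they were rounded, scaled by TMM and compared with edgeR 4.0.16 (R 4.3.3), by the quasi-likelihood test and by glmTreat for a fold change above 1.2, without covariates, with Benjamini-Hochberg adjustment across the 12121 genes. The SE came from the fold change and the F statistic, and 95% intervals are 1.96 SE on either side. For the difference in a pair, the SE combined those of its genes as if they were independent. The steps were tested on simulated data. Library totals ranged from 19054244 to 52725870, and the common biological coefficient of variation was 2.97%. Counts of replicates differed by more than sampling noise. The members and lists were chosen with earlier results of these data known. Named genes are the members, with full values for the 4 largest rises and falls of each compartment, scaffold genes, synthetases outside the symbol rule, up to 4 called genes of each other list, and Aqp1, Atf4, Ddit3, Asns and Eef1e1; Aars, Hars, Lars and Mars were given in full after their values were seen. Coding lengths were not used here. Alternatives used DESeq2 1.42.0, limma 3.58.1, other scalings, filters, libraries and members. The values of some genes and a sequence are not reported here.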

Additional observations from a re-analysis of the deposited data

How the results depend on the processing

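Of 481 values of single members under the alternatives, 465 stayed on their side of the threshold, 14 lost a call and 2 gained one, and no called value reversed; the changed calls were those of Aars2, Iars2, Lars, Mars2 and Nars2. With library totals alone as scaling, the medians became -0.28 over the cytosolic and 0.14 over the mitochondrial enzymes, and 6 cytosolic and 1 mitochondrial enzymes were lower by more than 1.2-fold, since this scaling shifts every value upwards. Above 1.2-fold, 1 mitochondrial enzyme was higher and 1 lower by the DESeq2 Wald test, and 1 was lower by limma-voom; the cause was not tested. Leaving out each library in turn gave 1 to 2 such lower mitochondrial enzymes, with the lowest count without C6 control replicate 3, and a mitochondrial median between 0.085 and 0.12. With Eprs, Tarsl2 and Pars2 added, 1 cytosolic enzyme rose, the mitochondrial median was 0.081 and the difference of the medians -0.40. Without Gars and Kars, 16 of 17 cytosolic enzymes fell. Without both shallow libraries, 18 cytosolic enzymes fell, and 7 mitochondrial enzymes rose and 5 fell. The correlation of deviations between libraries with the same number was 0.126, -0.0124 and 0.0651, so the numbers were not taken to pair the libraries; with the replicate block, 18 cytosolic enzymes fell, 8 mitochondrial enzymes rose and 5 fell. Depth limits the mitochondrial enzymes most, whose lowest count was 70.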
